A study of Mus musculus with 4 samples.

Results

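The response of macrophages to bacterial lipopolysaccharide (LPS) was compared between wild-type cells and cells labelled EZH2-/-, gene by gene, as a difference of responses. For each gene the response of a genotype was log2(FPKM + 1) with LPS minus log2(FPKM + 1) without it, where FPKM is the fragments of a gene scaled to its length and to the size of the library. The difference of responses is the response in knockout (KO) cells minus the response in wild-type (WT) cells. A value of 1 means that the KO fold was 2 times the WT fold, and a value of -1 the opposite. Genes entered if at least 1 library held at least 50 expected counts, which left 9218 of the 15935 genes listed in any library, and a gene that a library does not list was set to 0 there. Of these genes, 584 were induced and 1356 lowered by LPS, meaning that the mean log2 fold of both genotypes was at least 1 or at most -1, and 7278 were neither. The balance of these totals depends on the scaling. It was 886 induced and 541 lowered when FPKM was rescaled by the median ratio of the libraries. With 5 added to FPKM in place of 1 it was 459 and 364. A gene is called stronger or weaker below where its difference of responses was at least 1 or at most -1.

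The macrophages were grown from bone marrow of adult C57BL/6 mice for 5 days with M-CSF conditioned medium. WT NT and WT LPS are wild-type cells left untreated or given LPS for 2 h. KO NT and KO LPS are cells of the genotype labelled EZH2-/-, from mice carrying floxed Ezh2 alleles and a LysM-Cre transgene, under the same treatments. This Cre follows the lysozyme M gene, so recombination takes place in myeloid cells as they mature and need not be complete. Whether the WT mice carried Cre or floxed alleles, and whether NT and LPS cells were split from one culture, is not stated in the labels. Where 4 values of a gene follow each other, they are WT NT and WT LPS, then KO NT and KO LPS. Each group has 1 library. The differences below therefore carry no replicate error, and p-values are not given.

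LPS binds Toll-like receptor 4 (TLR4) and signals along a pair of routes. The MyD88 route activates NF-kB and MAP kinases and switches on cytokines and chemokines, while the TRIF route activates IRF3 and switches on interferon beta, which then acts back on the cells through its receptor to raise interferon-stimulated genes. Feedback genes such as IL-10, SOCS proteins and MAP kinase phosphatases limit the response. Ezh2 encodes the catalytic subunit of Polycomb repressive complex 2, which methylates histone H3 at lysine 27, a mark of silenced genes.

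Ezh2 (gene ID 14056, chromosome 6, 47530274 to 47595270 in GRCm38.p6) was low in all libraries, with 2.84, 2.52, 2.06 and 1.29 FPKM in WT (NT, LPS) and KO (NT, LPS). With 43, 38, 31 and 18 counts it missed the limit of 50. Its KO libraries were below its WT libraries, but a value over the whole gene also holds exons outside a floxed stretch and does not measure recombination. Total expected counts lay between 5237782 and 5678451. The macrophage genes Adgre1 (370 to 557 FPKM), Csf1r (552 to 762) and Cd68 (1078 to 1391) were high in all 4 libraries, while Cd3e, Ncr1 and Fcer1a, which mark T, NK and mast cells, were listed in none. Of 20 neutrophil and precursor markers 11 were measured. The summed level of the whole list was 448 and 489 FPKM in WT (NT, LPS) and 754 and 674 FPKM in KO, so it was higher in both KO libraries. The median difference of responses over those 11 markers was -0.04. Summed fibroblast and stromal markers stood at 12.4 and 12.6 FPKM in WT and at 6.87 and 6.23 in KO. The part of these other cells in the results below was not tested. In bulk RNA, fewer cells that respond and less RNA per responding cell cannot be told apart.

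Most genes differed by far less than 2-fold between the responses of the genotypes. The median difference of responses was 0.05 over all 9218 genes, with quartiles of -0.11 and 0.22, and 40.6% of genes lay below 0. Stronger in KO were 52 genes, 0.564% of those measured, and weaker were 31 genes, 0.336%. Among induced genes 22 were stronger (3.77%) and 16 weaker (2.74%). Among lowered genes 12 were stronger (0.885%), meaning that they lost less in KO, and 8 were weaker (0.59%), meaning that they lost more. The remaining 18 stronger and 7 weaker genes, 0.247% and 0.0962% of their class, had a small mean fold, some with opposite signs in the genotypes. Genes past 2-fold were therefore 62.7% stronger, a share that became 45.5% (35 stronger and 42 weaker) after the median of genes of like GC content was taken from each gene, a setting chosen after seeing the data. The genes nearest to the limit were Kcna3 (1.0004) inside and Creb5 (0.998) outside on the stronger side, and Serpina3f (-1.02) inside and Il1a (-0.998) outside on the weaker side.

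Counting error was given for each gene as a 95% interval of the ratio of the KO and WT LPS ratios of FPKM, without a pseudocount. It is a normal approximation on the log scale from the 4 counts, with 0.5 added to each, and covers counting error only, not the spread between mice or cultures. The interval lay above 1 for 13.8% of all genes and below 1 for 5.84%. It narrows as counts rise, so lists of highly expressed genes reach larger shares with small differences, and the shares over all genes are only a rough background. Of the stronger genes it lay above 1 for 50 of 52, and of the weaker genes it lay below 1 for 23 of 31. These genes were chosen by size from the same libraries, so such shares are largely set by the choice and are no separate support. The share was lower among induced weaker genes, 8 of 16, of which Ifnb1, Il6, Lhx2, Cxcl1, Areg and Serpina3f had at most 2 counts in each resting library. Counts were fractional, a sign of reads shared with other genes, in 13 of the 52 and 15 of the 31, beside 1974 of all 9218. Of the 83 genes past 2-fold, 82 stayed past it with a pseudocount of 0.1 in place of 1, and 25 with a pseudocount of 5. Those 25 were Ifnb1, Il6, Cd69, Ccng2, Sgk1, Cxcl1, Cxcl9, Ppp1r15a, Cited2, Ifit3b and Rpl37rt on the weaker side, and Ccl2, Ccl7, Pfkfb3, Sbno2, Il4ra, Fosl2, Rnd1, Sema4c, P2ry2, Hilpda, Smim3, Dusp1, Gm6644 and Gm18853 on the stronger side. The other 58 kept their sign but fell within 2-fold there.

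**Figure D1:**
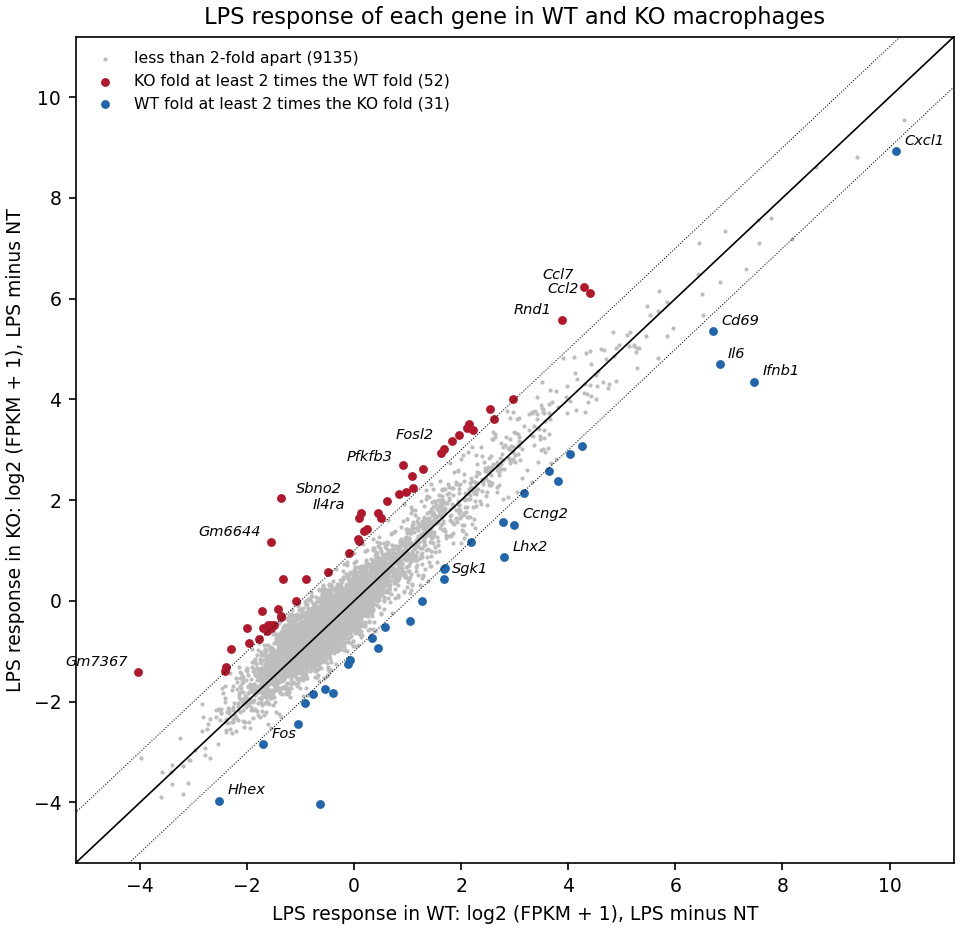
LPS response in WT (horizontal axis) and KO (vertical axis) of 9218 genes, each the log2(FPKM + 1) with LPS minus that without, 1 library per group. The solid line marks equal responses and the dotted lines a 2-fold difference. The 52 stronger genes lie above the upper dotted line and the 31 weaker genes, with Ifnb1 and Il6 far from the line, below the lower one.

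Interferon beta was the induced gene with the largest loss of response in KO. Ifnb1 (gene ID 15977, chromosome 4, 88522025 to 88522794) was not listed without LPS in either genotype, and stood at 177 FPKM in WT LPS (744 counts) and 19.5 FPKM in KO LPS (76 counts). It was thus present in both LPS libraries and far higher in WT. Against a floor of 3 counts per library the fold was at least 249.8 in WT and at least 27.4 in KO. On the log2(FPKM + 1) scale the difference of responses was -3.12, and it lay between -3.20 and -2.90 over the alternative settings. Because both resting libraries were at 0, the counting interval of the ratio of ratios, 0.0022 to 5.60, included 1, and the difference rests on the levels with LPS.

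Interleukin 6, a cytokine of the acute phase response, was next among the induced genes. Il6 (gene ID 16193, chromosome 5, 30013114 to 30019975) measured 0.17, 132, 0.33 and 33.8 FPKM in WT (NT, LPS) and KO (NT, LPS). Both resting values were near 0, at 1 and 2 counts, and the WT library with LPS was well above the KO one. The difference of responses was -2.12, with a ratio of ratios of 0.13 and an interval of 0.021 to 1.21.

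The DNA just before both genes holds sequence patterns of the factors known to drive them. The 250 bases before the start of transcription are given 5′ to 3′ on the coding strand, from RefSeq on GRCm38.p6, at chr4:88522795-88523044 (minus strand) for Ifnb1 and chr5:30012864-30013113 (plus strand) for Il6. Capitals mark matches on either strand to GGANNTTCC, a core of the NF-kB site, and to AANNGAAA, a core of the IRF site. Matches are a description of the letters and not proof of binding.
Ifnb1: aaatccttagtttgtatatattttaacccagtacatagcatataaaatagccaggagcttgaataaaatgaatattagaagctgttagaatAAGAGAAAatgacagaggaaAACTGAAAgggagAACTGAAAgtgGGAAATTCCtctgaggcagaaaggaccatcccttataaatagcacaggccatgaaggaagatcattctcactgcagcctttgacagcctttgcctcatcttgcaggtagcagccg
Il6: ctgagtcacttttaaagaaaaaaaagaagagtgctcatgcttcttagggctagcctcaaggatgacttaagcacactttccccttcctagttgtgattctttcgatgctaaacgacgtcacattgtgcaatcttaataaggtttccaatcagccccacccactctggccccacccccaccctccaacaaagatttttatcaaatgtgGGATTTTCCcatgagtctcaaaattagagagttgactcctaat
Ifnb1 holds 3 IRF matches, whose first bases lie 159, 139 and 126 bases before the start, and 1 NF-kB match at 115 bases, packed within a short stretch. In Il6 there is 1 NF-kB match, at 43 bases before the start, and no IRF match.

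The other members of the interferon lists below had smaller differences than Ifnb1. The lists do not hold every interferon-linked gene. Ifit3b (-1.27) and Cxcl9 (-1.21), which are in neither, were past 2-fold. In a list of 11 genes of interferon beta and primary IRF3 response, 9 lay below 0, at a median of -0.32 beside 0.05 for all genes. Weaker was 1, Ifnb1, beside 0.336% of all genes and 2.74% of induced genes. Counting intervals below 1 were found for 6 of the 11 and intervals above 1 for 2, beside 5.84% and 13.8% of all genes. Tnfsf10, which encodes the death ligand TRAIL, was at 2.45, 7.43, 1.95 and 3.19 FPKM in WT (NT, LPS) and KO (NT, LPS), a difference of -0.78. Ifit3, an antiviral gene, was at 291, 557, 212 and 241 FPKM, and its near copy Ifit3b at 47.0, 114, 52.5 and 52.1. In both, the WT level with LPS was about 2 times its resting level and the KO level was close to it. The single differences were -0.75 and -1.27, but the copies share reads, and their summed level gave -0.84. Ccl5, a chemokine also driven through IRF3, went the other way, at 337, 2097, 153 and 1539 FPKM and a difference of 0.69.

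Of 47 interferon-stimulated genes, 38 lay below 0 and none was past 2-fold, at a median of -0.12. Only 14 of the 47 were induced, and the median log2 fold was 0.50 in WT and 0.30 in KO. Genes raised so little can hardly lose a 2-fold response, so the lack of members past 2-fold says little. Their intervals lay below 1 for 15 and above 1 for 2 of the 47, beside 5.84% and 13.8% of all genes. Cmpk2, a mitochondrial nucleotide kinase, had the most negative value, -0.76, from 75.4, 526, 46.5 and 193 FPKM. Daxx, a death domain-associated protein, was at -0.46 and Irgm1, an immunity-related GTPase, at -0.40, while Gbp2, a guanylate-binding GTPase, was at 0.25. The genotype gap for this list was already present at rest, with a median log2 ratio of KO to WT of -0.33 without LPS and -0.48 with it. The difference of responses of these genes was thus small beside the gap between the genotypes.

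Of 17 measured pro-inflammatory cytokines 12 lay below 0 and 5 above. Weaker was 1 (Il6), beside 0.336% of all genes and 2.74% of induced genes. The interval lay below 1 for 1 of the 17 (Tnf), beside 5.84% of all genes, and above 1 for none, so those of Il6, Il1a and Il1b included 1. Among the 26 lists of at least 10 measured genes the cytokines had the lowest median, but with a pseudocount of 5 the interferon beta and IRF3 list was lower, at -0.43 against -0.34. The median of the cytokines was -0.57, and it ran from -0.72 to -0.32 over the alternative settings. Il1a, interleukin 1 alpha, lay just short of the limit at -0.998, from 0.27, 369, 0.45 and 211 FPKM. Il23a and Csf2, which encode a subunit of interleukin 23 and the growth factor GM-CSF, were listed in neither resting library. They reached 8.97 and 11.7 FPKM in WT LPS against 4.12 and 5.65 in KO LPS. Setting unlisted genes to 3 counts left the list's median at -0.57. This setting could hardly move it, because the floors were nearly equal in WT and KO (0.3929 and 0.3936 FPKM for Il23a) and so cancel in the difference.

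Tumour necrosis factor was measured far more precisely. Tnf was at 25.2, 4172, 21.1 and 2135 FPKM in WT (NT, LPS) and KO (NT, LPS), a difference of -0.72 and a ratio of ratios of 0.61 (0.504 to 0.737). The resting levels were close to each other and the level with LPS was higher in WT. Interleukin 1 beta had the same difference, -0.72, by another path. Il1b was at 0.79, 2207, 1.72 and 2035 FPKM, so its levels with LPS were close and its resting KO level, 13 counts against 6, was the higher one. Il12b, a subunit of interleukins 12 and 23, was at -0.45, and Nos2, the inducible nitric oxide synthase, at -0.17. Both signs changed with the pseudocount, at 0.0384 and 0.7337 with 0.1 and -0.5702 and -0.3879 with 5. Resting counts in WT and KO were 4 and 2 for Il12b and 12 and 3 for Nos2. Their ratios of ratios were above 1, at 1.297 (0.2485 to 5.484) and 2.371 (0.6433 to 6.975), with intervals that included 1. The direction is therefore open for both genes. Osm, which encodes oncostatin M, was among the 5 members above 0, at 0.48.

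**Figure D2:**
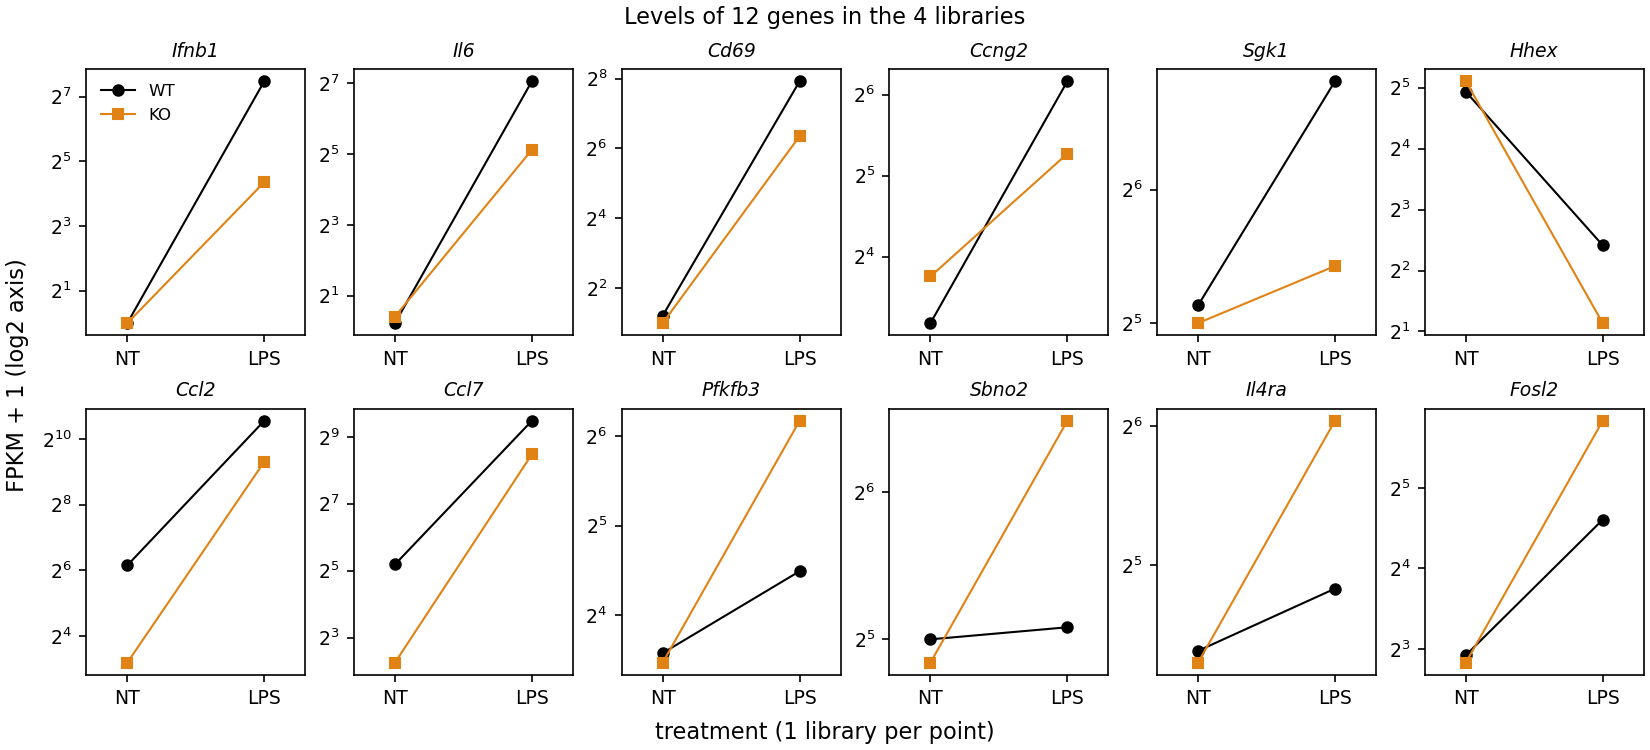
FPKM + 1 on a log2 axis without (NT) and with LPS in WT (circles) and KO (squares) for 12 genes, 1 library per point, each panel with its own axis. Ifnb1, Il6, Cd69 and Sgk1 end lower in KO, Pfkfb3, Sbno2, Il4ra and Fosl2 start level and end higher in KO, and Ccl2 and Ccl7 start far lower in KO and end closer to WT.

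The chemokines, which recruit leukocytes, were split. Of 18 measured, 11 lay above 0 and 7 below, with a median of 0.11. Stronger were 2 and weaker 2, beside 0.564% and 0.336% of all genes and 3.77% and 2.74% of induced genes. The weaker pair were Cxcl1 and Cxcl9. Cxcl1, which attracts neutrophils, was at 0.19, 1333, 0.37 and 668 FPKM, a difference of -1.20 whose resting values rest on 1 and 2 counts (interval 0.041 to 2.34). Cxcl9, which attracts T cells and is driven by interferon gamma, was at 1.29, 14.7, 0.31 and 2.87 FPKM. Its KO level was lower in both states, its difference was -1.21, and its ratio of ratios of 0.81 had an interval of 0.289 to 2.04. The difference was -0.55 with a pseudocount of 0.1 and -0.91 on library-scaled counts (CPM). Cxcl10, driven by IRF3 and interferon, had close responses, at -0.18.

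The stronger pair were Ccl2 and Ccl7, neighbours on chromosome 11 (82035577 to 82037452 and 82045712 to 82047525) that attract monocytes. Ccl2 measured 70.0, 1496, 8.11 and 629 FPKM in WT (NT, LPS) and KO (NT, LPS). Ccl7 was at 35.4, 712, 3.76 and 355 FPKM in the same order. For both genes the KO library was the lower one in each state, and the larger KO fold came from a resting level far below WT. The differences were 1.71 and 1.93, with ratios of ratios of 3.63 (2.54 to 5.06) and 4.69 (2.86 to 7.35). Ccl12 of the same cluster had 3 counts in KO NT and a difference of 0.40.

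A gene can thus differ in response through its resting level, its level with LPS or both. The difference of responses equals the log2 ratio of KO to WT with LPS minus that without. The log2 ratio with LPS was the further from 0 in 40 of the 52 stronger and 25 of the 31 weaker genes, beside 5242 of all 9218. In the other 12 stronger genes the resting ratio was further from 0, among them Ccl2, Ccl7, Pdpn, Ednrb, P2ry2 and Irs2. Pdpn, the membrane glycoprotein podoplanin, was at 6.63, 17.6, 2.02 and 17.5 FPKM, so both genotypes reached the same level from different starts. Irs2, an adaptor of insulin and interleukin 4 receptors, was at 3.92, 4.39, 1.66 and 7.88 FPKM. The 6 weaker genes of this kind were Calhm6, Gprc5c, Gm45935, Fos, Hspa1b and Abhd15. Calhm6, a calcium homeostasis modulator family gene, was at 4.09, 70.0, 10.5 and 59.1 FPKM, a difference of -1.42 that was -0.997 with a pseudocount of 5.

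**Figure D3:**
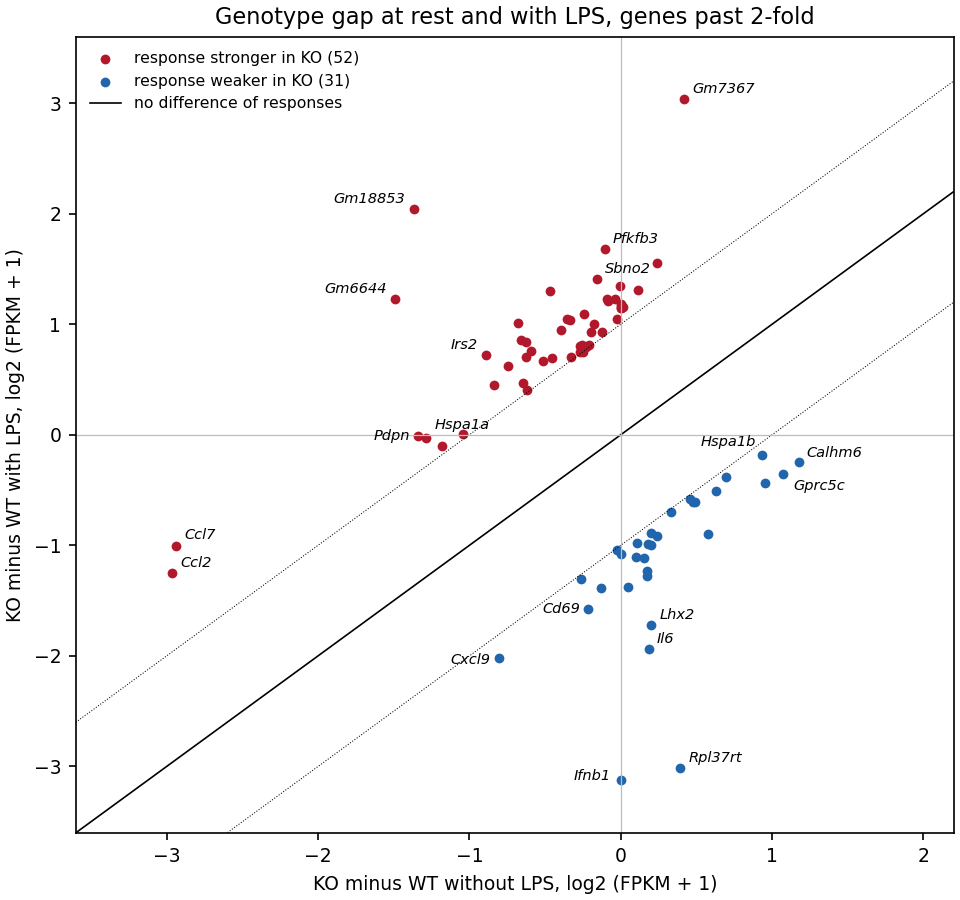
Log2 ratio of KO to WT without LPS (horizontal axis) against that with LPS (vertical axis) for the 83 genes past 2-fold; the solid line marks equal responses, the dotted lines a 2-fold difference. Most points lie near 0 on the horizontal axis, while Ccl2 and Ccl7 lie near -3 on it and Ifnb1 lies at 0 and -3.12.

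Among the other induced weaker genes, those with many counts had narrow intervals. Ccng2, an atypical cyclin linked to cell cycle arrest, was at 8.05, 70.7, 12.5 and 37.6 FPKM in WT (NT, LPS) and KO (NT, LPS). It was higher in KO at rest and lower in KO with LPS, at -1.47 (ratio of ratios 0.34, 0.265 to 0.444). Sgk1, a serum- and glucocorticoid-regulated kinase, was at 34.1, 111, 31.0 and 42.0 FPKM. Its level in KO LPS was closer to the resting levels than to WT LPS, and its difference was -1.25 (0.354 to 0.489). Ppp1r15a, the phosphatase subunit GADD34 of the integrated stress response, was at 8.03, 170, 9.24 and 85.7 FPKM, at -1.17. Cited2, a transcriptional coregulator that binds CBP and p300, was at 45.3, 416, 57.3 and 255 FPKM, at -1.04. In each of these 4 genes the resting levels were closer than the levels with LPS, and the WT level with LPS was the highest of the 4.

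Cd69, an early activation receptor of leukocytes, was at 1.31, 241, 0.99 and 80.4 FPKM, a difference of -1.36 with an interval of the ratio of ratios that just included 1 (0.187 to 1.02). Lhx2, a LIM homeobox factor, had no value in WT NT and 5.95 FPKM in WT LPS, against 0.15 and 1.11 FPKM in KO. Its difference, -1.92, came from 75 counts in WT LPS and 13 in KO LPS, and it ran from -3.64 to -0.88 over the settings. Areg, which encodes the growth factor amphiregulin, was listed in neither resting library and had 78 and 31 counts with LPS. These 3 genes are low or absent at rest, where a pseudocount bears most on the value. The other induced weaker genes were Serpina3g, Fabp3 (a fatty acid carrier) and Serpina3f, between -1.04 and -1.02, and Hspa1b.

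In the list of interleukin 10 and anti-inflammatory factors, 11 of 16 measured genes lay above 0 and 5 below, at a median of 0.30. Stronger were 2, beside 0.564% of all genes and 3.77% of induced genes, and none was weaker. The intervals of the 16 genes lay above 1 for 8 and below 1 for 1, beside 13.8% and 5.84% of all genes. Sbno2, a transcriptional coregulator acting downstream of interleukin 10, measured 30.9, 32.8, 27.6 and 88.6 FPKM in WT (NT, LPS) and KO (NT, LPS). Only the KO library with LPS stood apart, and the difference was 1.56 (ratio of ratios 3.03, 2.67 to 3.43). Il4ra, the interleukin 4 receptor alpha chain, was at 19.9, 27.5, 18.7 and 64.7 FPKM, again with KO LPS alone high, at 1.29 (2.51, 2.17 to 2.89).

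Il10 itself was short of the limit at 0.94, from 5.32, 92.9, 5.74 and 191 FPKM, so that resting levels were level and the KO level with LPS was higher. Il1rn, the interleukin 1 receptor antagonist, was at 50.9, 374, 28.5 and 402 FPKM and 0.92, with a lower resting level in KO and close levels with LPS. Etv3 and Nfil3, transcription factors known as interleukin 10 targets, were at 0.86 and 0.84. Socs3, a feedback inhibitor of cytokine receptors, responded alike at -0.02, and Socs1 was at -0.11. The interleukin 10 receptor chain Il10ra was the lowest of the list, at -0.38.

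Transcription factors of the immediate early class went both ways. Of 21 measured, 10 lay above 0 and 11 below, with a median of -0.08. Stronger were 3 and weaker 1, beside 0.564% and 0.336% of all genes and 3.77% and 2.74% of induced genes. Fosl2, an AP-1 subunit, was at 6.58, 23.4, 6.11 and 56.1 FPKM, a difference of 1.32 (ratio of ratios 2.59, 2.10 to 3.18). Klf7, a Krüppel-like factor, was at 3.84, 21.5, 2.39 and 34.8 FPKM, at 1.18. Nr4a1, an orphan nuclear receptor, was at 1.53, 1.89, 1.74 and 6.17 FPKM, at 1.20, and only its KO library with LPS was high. The other way lay Fos, the founding AP-1 subunit, which LPS lowered at this time, from 39.9 to 11.5 FPKM in WT and from 62.2 to 7.80 in KO, a difference of -1.14. Atf3, a repressor of the ATF family, was at 152, 373, 148 and 209 FPKM, at -0.80, and Klf2 was at -0.97.

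The windows before Fosl2 and Il4ra are shown for comparison with those of Ifnb1 and Il6, from the same source with the same capitals, at chr5:32136222-32136471 and chr7:125552021-125552270, both on the plus strand.
Fosl2: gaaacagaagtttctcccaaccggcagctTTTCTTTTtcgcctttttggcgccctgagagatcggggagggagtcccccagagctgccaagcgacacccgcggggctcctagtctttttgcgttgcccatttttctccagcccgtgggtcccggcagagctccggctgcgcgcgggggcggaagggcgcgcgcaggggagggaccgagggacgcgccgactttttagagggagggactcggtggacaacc
Il4ra: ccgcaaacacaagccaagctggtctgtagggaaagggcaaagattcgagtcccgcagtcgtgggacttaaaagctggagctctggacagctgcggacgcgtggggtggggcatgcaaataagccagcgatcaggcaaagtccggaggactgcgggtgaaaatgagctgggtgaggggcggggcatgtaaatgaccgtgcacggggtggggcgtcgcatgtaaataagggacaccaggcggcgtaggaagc
Fosl2 holds 1 IRF match on the other strand, 221 bases before the start, and the Il4ra window holds no match to either pattern. The window before Cxcl9, an induced weaker gene, was also searched and is not printed here. It holds no match to either pattern. Of the 83 genes past 2-fold, 52 have exactly 1 such window. The NF-kB pattern was in 4 of 12 induced weaker genes and 1 of 13 induced stronger genes, beside 9.37% of 363 induced genes and 3.59% of all 32851 windows. The IRF pattern was in 3 of 12 and 1 of 13, beside 23.7% of induced genes and 21.3% of all windows. These few windows are a description, and no match says only that the letters are not in these 250 bases.

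Of 14 measured genes of MAP kinase feedback 13 lay above 0 and 1 below, where 40.6% of all genes lay. The median was 0.18, 1 gene was stronger, beside 0.564% of all genes, and none was weaker. The interval lay above 1 for 4 of the 14, beside 13.8% of all genes, and below 1 for none. Dusp1, the phosphatase that inactivates p38 and JNK, was at 30.8, 247, 28.2 and 469 FPKM, a difference of 1.05 (ratio of ratios 2.08, 1.77 to 2.45). Spred2, an inhibitor of Ras signalling to ERK, was at 0.96, Dusp16, a JNK phosphatase, at 0.95 and Spry2, a Sprouty inhibitor, at 0.87. In these 4 genes the KO level with LPS was above the WT one, and apart from Dusp1 they lay within 2-fold.

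Among the remaining stronger induced genes Pfkfb3, which makes the activator of phosphofructokinase and so speeds glycolysis, measured 10.9, 21.5, 10.1 and 71.1 FPKM in WT (NT, LPS) and KO (NT, LPS). Resting levels were close and the KO library with LPS stood far above the other 3, at 1.79 (ratio of ratios 3.59, 2.98 to 4.32). Hilpda, a lipid droplet protein induced by hypoxia, was at 6.02, 9.75, 4.57 and 21.1 FPKM, at 1.37. Over the whole list of 26 glycolysis and hypoxia-responsive genes the median was 0.10 and 18 lay above 0. Only Pfkfb3 was stronger, beside 0.564% of all genes. Hk2, a hexokinase, was at 0.53, Hif1a, the hypoxia-inducible factor, at 0.44, and the enzymes Gapdh and Pgk1 at 0.03.

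P2ry2, a receptor for extracellular ATP and UTP, was at 11.5, 54.2, 6.47 and 84.0 FPKM, lower in KO at rest and higher in KO with LPS, at 1.36 (2.14 to 3.52). Adora2b, an adenosine receptor, followed the same pattern, at 3.55, 15.2, 2.02 and 26.3 FPKM and 1.35 (1.71 to 5.31). They were the 2 stronger members among 23 G protein-coupled and adhesion receptors, whose median was 0.09. The share of stronger genes was 0.564% of all genes and 3.77% of induced genes. Rnd1 was at 1.85, 41.1, 0.78 and 83.7 FPKM, at 1.69. Sema4c, a semaphorin, was at 1.92, 7.99, 2.45 and 25.4 FPKM, at 1.31, and Ptges, the inducible prostaglandin E synthase, at 0.91, 7.20, 0.24 and 12.4 FPKM, at 1.33. In Rnd1, Sema4c and Ptges the KO library with LPS held the highest level of the 4. The other induced stronger genes, between 1.0004 and 1.40, were Smim3, Gja1 (the gap junction protein connexin 43), Ednrb, Hspa1a, Steap4, Lancl3, an unnamed gene and Kcna3. Of these, Smim3 alone was past 2-fold with a pseudocount of 5.

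**Figure D4:**
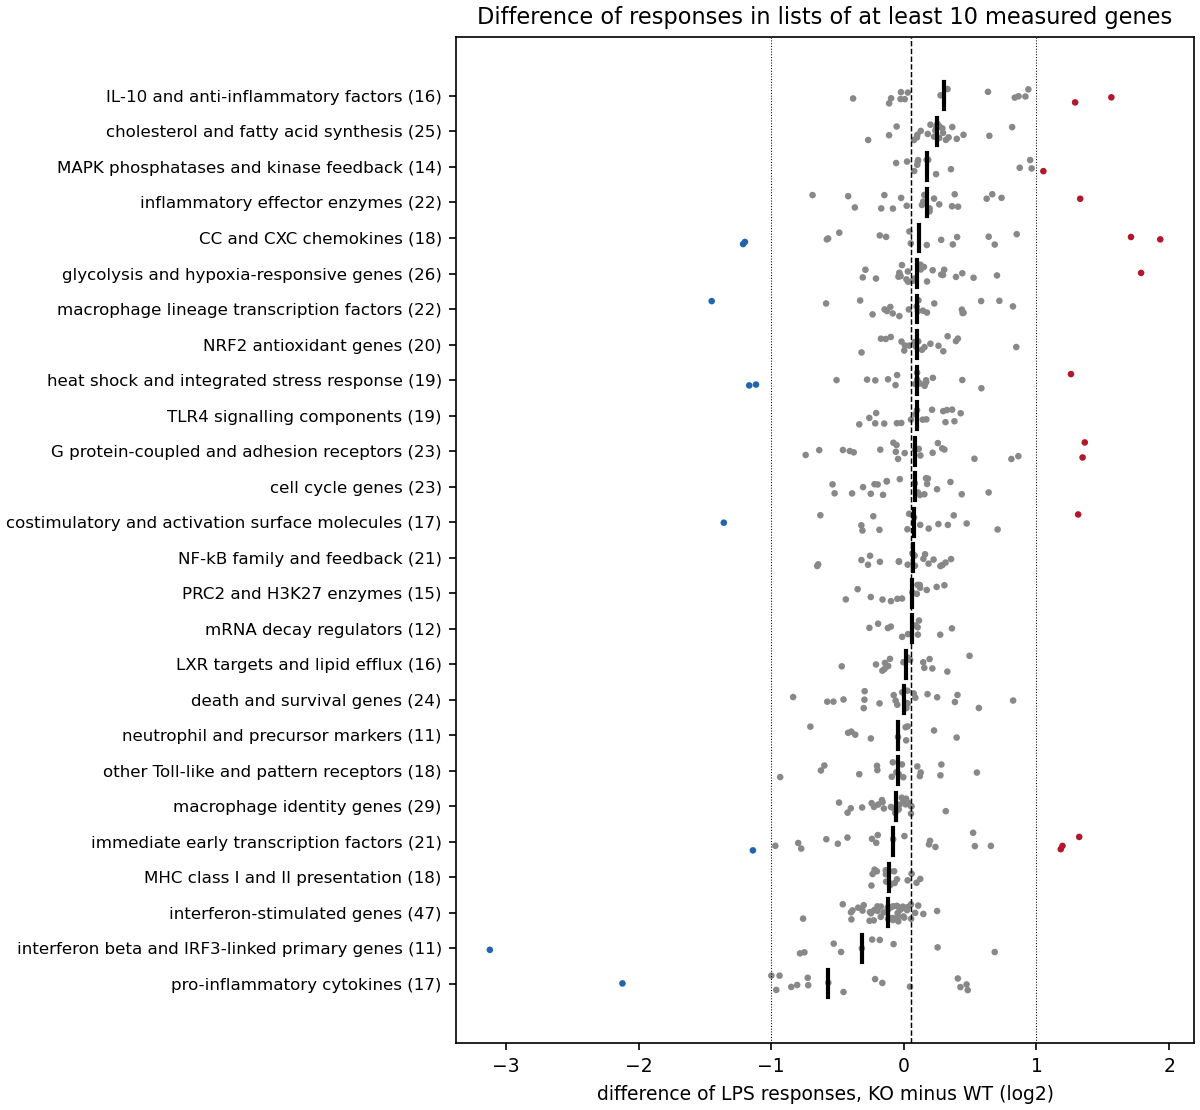
Difference of responses (horizontal axis, log2) of each measured gene in the 26 lists of at least 10 measured genes, 1 point per gene, with the list median as a bar, the median of all genes as a dashed line and 2-fold as dotted lines. The medians run from -0.57 for pro-inflammatory cytokines to 0.30 for interleukin 10 and anti-inflammatory factors, and most single genes lie within 2-fold.

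The listed receptors and signalling proteins that carry the LPS signal all differed by less than 2-fold in their responses. Of 19 TLR4 signalling components 12 lay above 0 and 7 below, at a median of 0.10. The 5 induced ones all lay below 0, at a median of -0.21. Intervals lay below 1 for 4 and above 1 for 3 of the 19, beside 5.84% and 13.8% of all genes. Tlr4 was at 33.0, 9.89, 37.1 and 10.8 FPKM, a difference of -0.05, and its co-receptor Cd14 was at -0.15. Traf6, an adaptor ligase of the MyD88 route, was at 0.21, Ticam1, the TRIF adaptor, at 0.36 and Irak3, an inhibitor of the route, at -0.34. Of 21 NF-kB family and feedback genes none was past 2-fold, at a median of 0.07, with Nfkbid and Nfkbiz, nuclear inhibitor-like proteins, lowest at -0.65 each. Intervals lay below 1 for 5 and above 1 for 3 of these 21. Among other pattern receptors Tlr3, the receptor of double-stranded RNA, was at -0.93, from 9.89, 16.7, 8.82 and 7.35 FPKM, and Tlr2 at -0.62. Tlr3 was the furthest from 0 of the 18 measured, and its level was lowest in KO LPS.

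Cholesterol and fatty acid synthesis genes lay on 1 side as a list without any member past 2-fold. Of 25 measured, 22 lay above 0 and 3 below, at a median of 0.25, and their intervals lay above 1 for 15, beside 13.8% of all genes, and below 1 for none. This list was lower in KO in both states, with a median log2 ratio of KO to WT of -0.77 without LPS and -0.48 with it. Scd2, a fatty acid desaturase, was at 61.2, 14.3, 13.5 and 4.60 FPKM, at 0.64. Hmgcs1, an enzyme of the cholesterol pathway, was at 108, 139, 60.0 and 107 FPKM, at 0.45. The positive differences thus went with a smaller gap after LPS.

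Macrophage identity genes had a median of -0.06, with 21 of 29 below 0, beside 40.6% of all genes, and none past 2-fold. Their intervals lay below 1 for 12 and above 1 for 1, beside 5.84% and 13.8% of all genes. This list is highly expressed, at a summed 33542 FPKM in WT NT, so its intervals are narrow and small differences fall outside 1. Among lineage transcription factors Hhex, a homeobox factor of blood and liver, was weaker, which here means a deeper loss. It was at 29.5, 4.33, 33.4 and 1.20 FPKM, a difference of -1.45 (ratio of ratios 0.25, 0.130 to 0.493), and -0.74 with a pseudocount of 5. Cebpb and Batf, bZIP factors that LPS induces, were at 0.72 and 0.82. Antigen presentation genes (18 measured, median -0.11), cell cycle genes (23, 0.08), genes of Polycomb repressive complex 2 and histone H3 lysine 27 enzymes (15, 0.06), antioxidant genes (20, 0.10) and death and survival genes (24, 0.00) had no member past 2-fold. In the latter list Bcl2l1, the survival factor Bcl-xL, was highest at 0.82 and Pmaip1, the death factor Noxa, lowest at -0.83.

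Of the lowered genes that lost less in KO, Irf2bpl, an IRF2-binding protein family gene, was at 19.3, 3.13, 16.2 and 7.83 FPKM in WT (NT, LPS) and KO (NT, LPS), at 1.34 (ratio of ratios 2.98, 2.19 to 4.03). Midn, which encodes midnolin, a protein that delivers nuclear proteins to the proteasome, was at 22.5, 6.73, 19.5 and 13.8 FPKM, at 1.13 (1.85 to 2.997). Thbd, the anticoagulant receptor thrombomodulin, was at 6.26, 0.85, 6.32 and 3.11 FPKM, at 1.14. All 3 were close at rest and higher in KO with LPS, and all 3 were within 2-fold with a pseudocount of 5 (0.86, 0.84 and 0.46). The others of the 12 were AU022252, Zfp524, Btbd6, Hps6, AI597479, Gm10653, Qtrt1 and B3galt4, between 1.02 and 1.46, and the pseudogene Gm7367. The median GC content of the transcripts of the 10 such genes with a value was 58.0%, beside 51.5% for all lowered genes and 49.4% for all genes. Over 9040 genes the correlation of the difference of responses with GC content was 0.055 (Pearson) or 0.043 (Spearman), and with transcript length 0.123 or 0.157, as a description across genes of the same 4 libraries.

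The 8 lowered genes that lost more in KO were Hhex, Fos, Zfp672, Ppcs, Abhd15, Rpl37rt, Gm20604 and Gm6710. Zfp672, a zinc finger gene, was at 8.65, 5.61, 9.37 and 2.08 FPKM and -1.21. Its deposited length differed 2.67-fold between libraries, and on library-scaled counts (CPM), which leave length out, its difference was 0.23. Ppcs, an enzyme of coenzyme A synthesis, and Abhd15, a hydrolase-like gene, were at -1.10 and -1.08, each from 6 counts in KO LPS.

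Among genes that were neither induced nor lowered, some that were past 2-fold had folds of opposite signs in the genotypes. Aim2, a sensor of cytosolic DNA, was at 12.2, 18.5, 17.4 and 11.8 FPKM in WT (NT, LPS) and KO (NT, LPS). It was higher with LPS in WT and lower in KO, at -1.09, with fractional counts and an interval of 0.339 to 0.588. Acvr1b, an activin receptor, was at 11.9, 3.82, 11.6 and 10.3 FPKM, so that its loss was seen in WT and hardly in KO, at 1.26 (1.98 to 3.84). Mideas, a subunit of a histone deacetylase complex, was at 7.90, 3.76, 7.89 and 11.1 FPKM, at 1.34 (2.31 to 3.75). The other stronger genes of this class, beside Sbno2, Irs2, Nr4a1 and the pseudogenes below, were Dnajc25, H2ax, Dtx2, Slc25a33, Gm13363, an unnamed gene, Gadd45g, Lsm12, Cd300ld4, Bnip1 and Bcar3, from 1.77 to 1.03. The other weaker ones, beside Aim2 and Ifit3b, were Gprc5c, Gm45935, Cdc42ep3, Gm4737 and Smim40, from -1.43 to -1.08.

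The genes that LPS induced most were below 0 more often than the others, though this was not tested. Induced genes with a mean log2 fold of 1 to under 2 (304 genes) had a median difference of 0.10, those of 2 to under 3 (141) had 0.05, those of 3 to under 4 (68) had 0.12 and those of 4 to under 6 (55) had -0.00. At 6 or more there were 16 genes, with a median of -0.47, 12 of them below 0, 2 weaker (Cxcl1 and Cd69) and none stronger. These 16 also included Il1a, Il1b, Tnf, Il12b, Il27, Cxcl2 and Cxcl10, and the highest of them was Acod1, the itaconate-producing enzyme, at 0.67. Of the 16, only Tnf and Acod1 had an interval that did not include 1. Low resting levels make such values depend on the pseudocount. Il12b and Socs3, counted below 0, ran up to 0.0384 and 0.2118 over the settings. Cxcl1, Cd69, Il1a, Il1b, Tnf and Cxcl10 stayed below 0. The median of this bin was not computed under other pseudocounts.

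**Figure D5:**
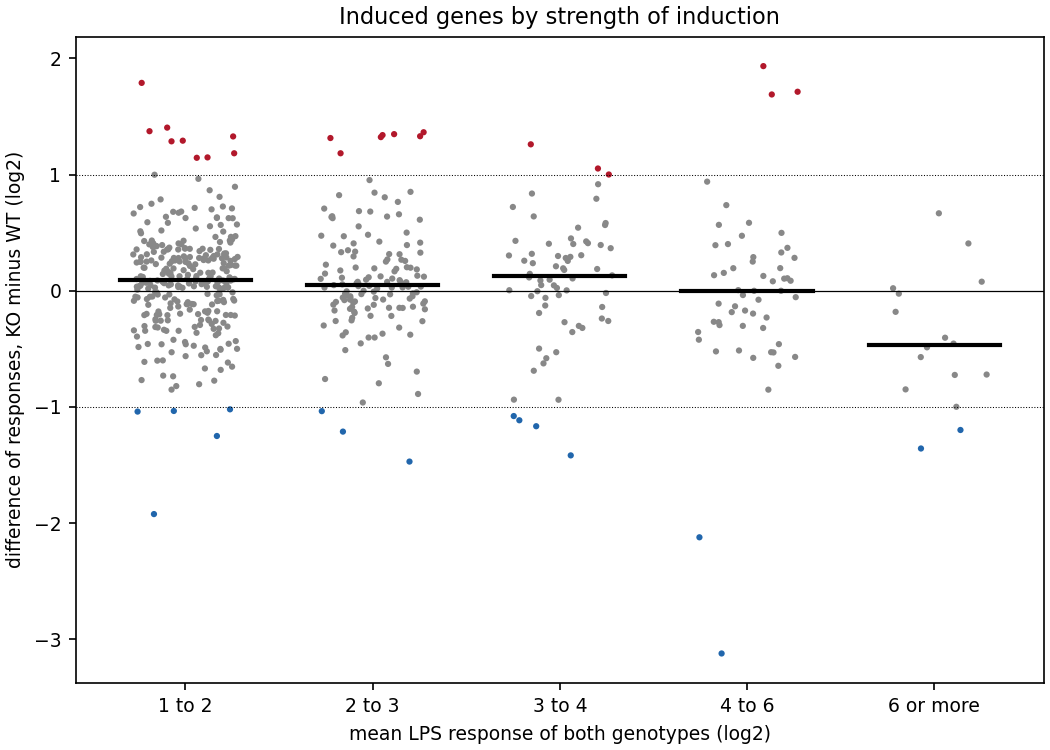
Difference of responses (vertical axis, log2) of the 584 induced genes by the mean log2 fold of both genotypes (horizontal axis), 1 point per gene, with the median of each bin as a bar and 2-fold as dotted lines. The bins from 1 to 6 have medians between -0.00 and 0.12, and the 16 genes at 6 or more have a median of -0.47.

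Some genes past 2-fold have near copies. Hspa1a and Hspa1b, which encode nearly identical heat shock proteins, were at 1.26 and -1.11 singly, and at 0.24 when summed. The pseudogenes Gm18853 at 3.41, Gm6644 at 2.72 and Gm7367 at 2.62 headed the stronger genes, and the retrotransposed gene Rpl37rt had the lowest value, -3.41. Their counts were fractional, a sign of reads shared with other genes, and Gm18853 was listed in neither WT LPS nor KO NT. Their values are therefore uncertain.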

How the data were processed

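Total RNA of cultured bone marrow-derived macrophages was, per the labels' protocols, sequenced on a HiSeq, with 1 library in each of 4 groups taken from the titles. The submitters' processing notes name Bowtie, RSEM and the genome mm10. Of their versions, the annotation, the strand setting and filters nothing is given in the sources used here. The deposited expected counts are the authors' estimates from RSEM, which splits a read that fits several genes, so that they need not be whole. The deposited FPKM is the authors' expected count scaled by the deposited gene length and by library size, so a large gain of some genes lowers the others.

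Symbols and positions came from RefSeq on GRCm38.p6 (the assembly of mm10) for 15897 of 15935 gene IDs; 14 of the 9218 genes used had none. Differences of responses were computed in Python 3.11.15 with pandas 2.3.3 and numpy 2.4.6, with a pseudocount of 1, and counting intervals and floors (3 counts per library) as described in the report. They cover counting error only, since PCR copies are not independent molecules. The computation was tested on simulated counts. Length and GC content were those of the longest GENCODE M21 transcript (9040 genes).

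Genes and 30 lists were chosen with earlier results of these data known. Named genes were the 15 highest and 15 lowest differences, the 12 highest and lowest among induced and among lowered genes, up to 4 members per list with the largest differences, genes with opposite folds of at least 0.5, and a fixed set of known LPS and Polycomb genes. Other genes past 2-fold and the list members Etv3, Nfil3, Il10ra, Osm, Atf3, Gbp2, Ccl12, Gapdh, Pgk1, Il27 and Cxcl2 were named after their values were seen. Alternatives were pseudocounts of 0.1 and 5, count limits of 20 and 200, rescaled libraries, CPM, other size rules, other choices of induced genes and 3 counts for unlisted genes. Whole counts only and subtracting the median of genes of like GC content (10 bins) were added after seeing the data.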

Additional observations from a re-analysis of the deposited data

Results flagged for a closer look

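For 3 genes the LPS response went up in one genotype and down in the other, each by at least 0.5 on the log2 scale; with 1 library per group the difference was not tested. Aim2 had a log2 fold of 0.57 in WT and -0.52 in KO, a difference of -1.0921. Gm6644, a transcribed pseudogene, had -1.55 in WT and 1.17 in KO, a difference of 2.7226, from 73.9 and 20 counts in WT (NT, LPS) and 21.3 and 53.2 in KO. Gm18853, another transcribed pseudogene, had -1.37 and 2.04, a difference of 3.4065, and was listed only in WT NT (39.5 counts) and KO LPS (71.5 counts). All 3 have fractional counts, so reads shared with other genes enter their values.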

How the results depend on the processing

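No paired analysis was possible because each group has 1 library, and for the same reason no library could be left out. The counts of stronger and weaker genes, 52 and 31, were 153 and 86 with a pseudocount of 0.1, 14 and 11 with a pseudocount of 5, 87 and 48 from at least 20 expected counts, 23 and 15 from at least 200, 92 and 51 on CPM, 355 and 192 at 1.5-fold and 9 and 4 at 3-fold. With whole counts only, 16 genes were weaker. Induced stronger genes, 22 in the report, numbered 9 with a pseudocount of 5, 68 at 1.5-fold, 4 at 3-fold and 13 when induced meant a mean fold of 4. Induced weaker genes, 16 in the report, numbered 31 with a pseudocount of 0.1, 8 with 5, 46 at 1.5-fold and 3 at 3-fold. Lowered genes that lost more and less in KO, 8 and 12 in the report, numbered 30 and 73 with a pseudocount of 0.1, 1 and 0 with 5, 2 and 2 from at least 200 counts, 14 and 31 on CPM, 39 and 76 at 1.5-fold, 1 and 1 at 3-fold, 3 and 21 when chosen by the WT fold alone, and 3 and 1 at a mean fold of 4. Those that lost less were 6 with median-ratio scaling and 6 after GC centring, and those that lost more were 3 with whole counts only. Size rules, count limits and class limits change these counts by construction, and for the others the cause was not tested. Zfp672 reversed on CPM, from -1.21 to 0.2292. The median over all genes ran from 0.01 (median-ratio scaling) to 0.11 (equal sums), and the share of stronger genes among those past 2-fold was 53.3% and 70.0% there. Of 298 recomputed list medians, 278 moved by no more than 0.1 and 20 by more; medians near 0 could change sign within that.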
